A study of Mus musculus with 11 samples.

Results

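Matrix metalloproteinases (MMPs), the ADAMTS proteases with their ADAMTS-like relatives, and the tissue inhibitors of metalloproteinases (TIMPs) were followed in injured and uninjured regions of mouse hearts. The set was chosen with earlier results of these data known, and its members were taken by gene symbol. They are every symbol beginning with Mmp and a digit or with Adamts, together with Timp1 to Timp4. This gave 44 of the 15274 genes in the table, of which 17 were MMPs, 18 ADAMTS, 5 ADAMTS-like and 4 TIMPs. Low counts left 1 of them, Adamts13, out of the tests, and its normalised counts lay between 0 and 15.7 in all 11 libraries. RNA sequencing compared 4 groups, all from mice of 8 weeks and all titled day 7: injured regions of C3H/HeJ (C3H) hearts (n = 2), uninjured regions of C3H hearts (n = 3), injured regions of C57BL/6J (B6) hearts (n = 3) and uninjured regions of B6 hearts (n = 3). The libraries came from 6 animals, 5 of which gave both regions. In these 5 animals the uninjured region was thus a piece of a heart that carried an injury elsewhere. The labels do not say by what means the injury was made.

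MMPs and ADAMTS proteins are zinc-dependent proteases that are secreted or held at the cell surface, mostly as inactive precursors, and that cut collagens, proteoglycans, elastin and other matrix proteins. TIMPs bind their active sites and block them, and TIMP2 also helps membrane-type MMP14 to activate MMP2. After injury of the heart such enzymes are known for clearing damaged matrix and for shaping the collagen scar that replaces lost muscle.

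The clustered MMP genes of chromosome 9 are shown first, because Mmp12 and Mmp13, whose injury effects differed most between the strains, stand side by side in that cluster. It holds 10 adjacent protein-coding Mmp genes (Mmp13, Mmp12, Mmp1b, Mmp3, Mmp1a, Mmp10, Mmp8, Mmp27, Mmp20 and Mmp7), and 6 of them were in the table. The lines below give the 100 bases before each annotated start of these 6 genes, on the plus strand, from RefSeq on build GRCm38.p6. Capitals mark matches to the AP-1 motif TGANTCA and to the TATA box TATAAA. Mmp12 has a pair of annotated starts and so a pair of lines.
Mmp13, chr9:7272414-7272513: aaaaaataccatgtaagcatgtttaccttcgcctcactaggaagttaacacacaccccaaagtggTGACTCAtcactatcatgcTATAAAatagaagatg
Mmp12, first start, chr9:7344297-7344396: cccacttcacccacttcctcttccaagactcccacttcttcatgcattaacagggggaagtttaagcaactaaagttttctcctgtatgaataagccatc
Mmp12, second start, chr9:7347274-7347373: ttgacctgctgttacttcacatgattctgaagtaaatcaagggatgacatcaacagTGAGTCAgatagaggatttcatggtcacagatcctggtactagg
Mmp3, chr9:7445722-7445821: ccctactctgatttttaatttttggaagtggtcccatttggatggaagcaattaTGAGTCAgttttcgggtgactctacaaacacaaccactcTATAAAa
Mmp10, chr9:7502242-7502341: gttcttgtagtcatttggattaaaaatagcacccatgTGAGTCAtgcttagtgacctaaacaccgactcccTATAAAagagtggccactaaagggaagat
Mmp8, chr9:7558329-7558428: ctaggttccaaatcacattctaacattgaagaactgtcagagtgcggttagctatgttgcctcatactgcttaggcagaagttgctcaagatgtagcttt
Mmp27, chr9:7571296-7571395: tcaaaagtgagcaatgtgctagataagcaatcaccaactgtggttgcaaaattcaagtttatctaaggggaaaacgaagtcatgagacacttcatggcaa

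An AP-1 match lay 35 bases before the start of Mmp13, 44 bases before the second start of Mmp12, 46 bases before that of Mmp3 and 63 bases before that of Mmp10. Windows of 250 bases were found for 29 of the 44 members (31 windows), and these 4 were the only ones among them with an AP-1 match on either strand, against 6.75% of all 32851 mouse promoter windows of that length. TATAAA on the forward strand was in 5 of the 31 windows, against 7.59% of all. The PEA3 motif AGGAAG was in 10 of the 31, against 29.5% of all, and the Runx motif TGTGGT in 4 of the 31, against 14.0% of all, both searched on either strand. In C3H hearts Mmp13, Mmp12 and Mmp27 of the cluster rose with injury and Mmp3, Mmp10 and Mmp8 did not pass the test, so genes with and without a match stood on both sides of the threshold. A match is a run of letters and not a measured binding site.

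Reads counted on genes numbered 22138459 in the deepest library (C3H uninjured 3) and 9699985 in the shallowest (B6 uninjured 2). Both C3H injured libraries stood apart on the first principal component, which held 38.6% of the variance (scores 88.1 and 102, against -68.7 to 33.1 for the others). All of the 10 cardiomyocyte markers were detected in every group, and their summed normalised count was 536914 to 588736 in C3H injured, 1653760 to 2027100 in C3H uninjured, 912774 to 1188090 in B6 injured and 1479640 to 1896140 in B6 uninjured libraries. The 5 C3H libraries had Xist at 1840 to 8478 and the Y-linked gene Ddx3y at 0.888 to 3.46, while the 6 B6 libraries had Xist at 3.14 to 12.2 and Ddx3y at 1429 to 2221, so the strains also differ in sex, and neither C3H with B6 comparison, nor the difference of their injury effects, can tell strain apart from sex. In such bulk samples a change in the share of a cell type and a change in RNA per cell cannot be told apart.

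**Figure D1:**
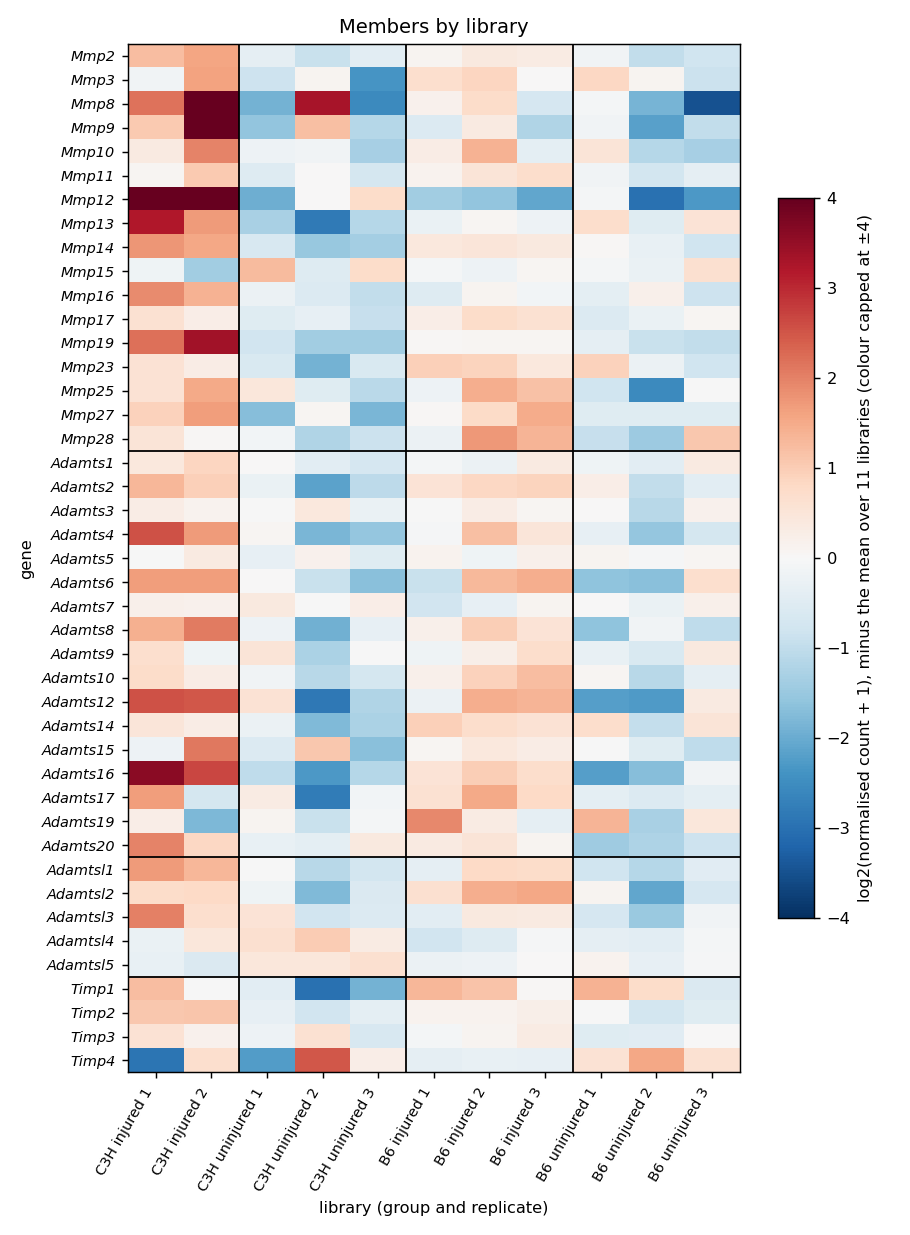
Each of the 43 tested members (down the page, by class) in each of the 11 libraries (across), as log2(normalised count + 1) minus the gene's mean over all libraries, with colour capped at 4 above and below. Both C3H injured libraries are the reddest columns for most MMP and ADAMTS members, whereas Adamtsl5 is blue there.

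Most of the protease genes rose with injury in C3H hearts. Of 43 members tested, 24 rose (55.81%) and 1 fell in C3H injured against C3H uninjured regions, by limma on log2(normalised count + 1) at an adjusted p under 0.05. Over all 14751 genes tested, 15.3% rose and 15.4% fell. By class 11 of 17 MMPs, 9 of 17 ADAMTS, 2 of 5 ADAMTS-like genes and 2 of 4 TIMPs rose, and the member that fell was the ADAMTS-like gene Adamtsl5. The median change of the members was 1.60 on the log2 scale (range -1.28 to 6.18), against 0.01 over all genes. Every C3H injured library was above every C3H uninjured one for 28 of the 43 members (65.12%), against 29.6% of all genes, and below every one for 1 member, Adamtsl5, against 29.7% of all genes.

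Among the collagenases, which cut fibrillar collagen, Mmp13 and Mmp8 were measured. Mmp13, the main interstitial collagenase of rodents, had 199.8 and 70.7 normalised counts in C3H injured regions, against 7.92, 2.09 and 8.88 in C3H uninjured regions. Its counts were low throughout, yet the groups did not overlap and it rose (log2 fold change 4.21, SE 0.63, adjusted p = 0.000757). Mmp8, the collagenase stored in neutrophil granules, had 49.3 and 194 in C3H injured regions, against 1.98, 109 and 0.888 in C3H uninjured regions. The uninjured region of C3H animal 2 lay between both injured ones, and Mmp8 did not pass (log2 fold change 3.54, adjusted p = 0.0925), though with the animal as a block its adjusted p was 0.04997 (log2 fold change 2.45).

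Both gelatinases, which digest denatured collagen and basement membrane, rose. Mmp2, present in most stromal cells, had 12040.5 and 15239 in C3H injured regions, against 3998, 2794 and 3799 in C3H uninjured regions. Its groups were far apart (log2 fold change 1.96, SE 0.28, adjusted p = 0.000528). Mmp9, a product of neutrophils, macrophages and osteoclasts, had 85.6 and 1513 in C3H injured regions, against 12.9, 95.3 and 17.8 in C3H uninjured regions. The rise of Mmp9 (log2 fold change 3.63, SE 1.10, adjusted p = 0.0270) came with overlapping groups and rested on 1 library: without C3H injured library 2 the change was 1.57 (adjusted p = 0.364), and leaving out C3H uninjured library 1 (adjusted p = 0.0653) or 3 (adjusted p = 0.0807) also ended the call. The summed count of 7 neutrophil markers was highest in animal 2 in either region. It was 83.9 and 874 in C3H injured regions of animals 1 and 2. In C3H uninjured regions of animals 1 to 3 it was 29.7, 1845 and 65.7. Within animal 2 this sum was higher in the uninjured region, whereas Mmp8 and Mmp9 were higher in the injured region. Marker sums of macrophages (73084 and 128447) and osteoclasts (8977 and 25860) were also higher in C3H injured library 2 than in library 1. None of the neutrophil markers passed the test, and the part of these cell types in the levels of Mmp8 and Mmp9 was not tested.

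Mmp12, the macrophage elastase, showed the largest change of all members tested. It had 8783 and 8504 normalised counts in C3H injured regions, against 39.6, 158 and 260.2 in C3H uninjured regions. The injured libraries were close to each other and far above the highest uninjured one (log2 fold change 6.18, SE 0.80, adjusted p = 0.000318). Of the stromelysins, Mmp11 rose (log2 fold change 0.97, SE 0.34, adjusted p = 0.0459), while Mmp3 (log2 fold change 1.76, adjusted p = 0.0723) and Mmp10 (log2 fold change 1.74, adjusted p = 0.115) did not pass. With the animal as a block Mmp3 passed (log2 fold change 1.09, adjusted p = 0.0171).

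Membrane-type MMPs are tethered to the cell surface, and 3 of the 5 measured rose. Mmp14, the activator of MMP2 and a collagenase in its own right, had 8969.9 and 7699 in C3H injured regions, against 1692, 929.6 and 1045 in C3H uninjured regions. That separation was wide relative to the spread in either group (log2 fold change 2.81, SE 0.29, adjusted p = 7.78e-05). Mmp16, another membrane-type enzyme able to activate MMP2, had 129.7 and 91.2 in C3H injured regions, against 28.7, 23.0 and 16.9 in C3H uninjured regions (log2 fold change 2.23, SE 0.43, adjusted p = 0.00283). Mmp17 rose by less (log2 fold change 1.02, SE 0.35, adjusted p = 0.0417), and with the animal as a block, a fit that also leaves out C3H uninjured library 3, it did not pass (adjusted p = 0.0920). Leaving out that library alone also ended the call. Mmp15 had a change of -1.27 (adjusted p = 0.0605) and passed as lower with the block (log2 fold change -1.16, adjusted p = 0.00391), with normalised counts of 1424 and 623 in C3H injured regions, against 3910.2, 1132 and 2676 in C3H uninjured regions, which overlapped.

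Mmp19, an enzyme that cuts basement membrane and cartilage proteins, had the smallest adjusted p of all members in this comparison. It had 1118 and 2495 in C3H injured regions, against 145, 92.1 and 93.2 in C3H uninjured regions. Both injured regions were several times above all uninjured ones (log2 fold change 3.95, SE 0.35, adjusted p = 3.04e-05). Mmp27 (log2 fold change 2.45, SE 0.67, adjusted p = 0.0167) and Mmp23 (log2 fold change 1.47, SE 0.47, adjusted p = 0.0343) rose as well. Mmp25 and Mmp28 did not pass, and Mmp25 stayed at or under 15.5 normalised counts in every library.

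The proteoglycan-cutting ADAMTS proteases comprise Adamts1, 4, 5, 8, 9, 15 and 20, and 3 of these 7 rose. Adamts4, an aggrecanase, had 370.1 and 203 in C3H injured regions, against 65.4, 16.8 and 20.4 in C3H uninjured regions. Its injured libraries were both above all uninjured ones (log2 fold change 3.23, SE 0.60, adjusted p = 0.00225). Adamts8 (log2 fold change 2.57, SE 0.59, adjusted p = 0.00672) and Adamts1 (log2 fold change 1.00, SE 0.30, adjusted p = 0.0244) rose too. Adamts5, the other main aggrecanase of mouse cartilage, had 1043 and 1345 in C3H injured regions, against 853, 1181 and 757 in C3H uninjured regions. These overlapped, and Adamts5 did not pass (log2 fold change 0.37, SE 0.23, adjusted p = 0.240).

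The procollagen N-proteinases remove the amino-terminal propeptide of fibrillar procollagens, and 2 of 3 rose. Adamts2, the most abundant ADAMTS member by mean normalised count, had 7127 and 5461 in C3H injured regions, against 2348, 646 and 1353 in C3H uninjured regions. The groups were apart although the uninjured libraries differed several-fold among themselves (log2 fold change 2.29, SE 0.46, adjusted p = 0.00354). Adamts14 rose close to the threshold (log2 fold change 1.47, SE 0.51, adjusted p = 0.0467), and Adamts3 had a change of 0.19 (adjusted p = 0.731).

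Of the other ADAMTS genes tested, 4 of 7 rose. Adamts16, reported to cut fibronectin, was low in uninjured regions, with 124 and 63.6 in C3H injured regions, against 3.96, 1.05 and 3.55 in C3H uninjured regions. It had the second largest change of all members (log2 fold change 4.64, SE 0.71, adjusted p = 0.000825). Adamts12, which can cut cartilage oligomeric matrix protein, had 670.2 and 643 in C3H injured regions, against 168, 14.7 and 48.8 in C3H uninjured regions. Its rise (log2 fold change 3.69, SE 0.95, adjusted p = 0.0122) did not pass without C3H injured library 1 (adjusted p = 0.0635) or 2 (adjusted p = 0.0761). Adamts6 (log2 fold change 2.53, SE 0.82, adjusted p = 0.0357) and Adamts10 (log2 fold change 1.17, SE 0.40, adjusted p = 0.0418), both relatives with links to fibrillin microfibrils, rose by less. Adamts7, Adamts17 and Adamts19 did not pass, and Adamts17 passed only with the animal as a block (log2 fold change 1.72, adjusted p = 0.0201).

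ADAMTS-like proteins lack the protease domain and bind matrix microfibrils. Adamtsl5, the most abundant of them, had 1577 and 1309 in C3H injured regions, against 2690.3, 2653 and 3050.1 in C3H uninjured regions. It fell, with no overlap (log2 fold change -0.96, SE 0.21, adjusted p = 0.00498). Adamtsl1 (log2 fold change 2.13, SE 0.43, adjusted p = 0.00358) and Adamtsl3 (log2 fold change 1.61, SE 0.52, adjusted p = 0.0334) rose. Adamtsl2 (log2 fold change 1.61, adjusted p = 0.0506) and Adamtsl4 (log2 fold change -0.56, adjusted p = 0.165) did not pass, and with the animal as a block both did, Adamtsl2 as higher (adjusted p = 0.0333) and Adamtsl4 as lower (log2 fold change -0.73, adjusted p = 0.0235).

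How firmly the C3H changes stood depended on single libraries, as 1 group held only 2. Leaving out any 1 library kept 11 of the 25 calls: Mmp2, Mmp12, Mmp13, Mmp14, Mmp16, Mmp19, Adamts2, Adamts4, Adamts16, Adamtsl1 and Timp2. The count of members called was 12 without C3H injured library 2, 15 without C3H uninjured library 3 and 20 to 26 without any other single library. Without C3H injured library 2 the 13 calls lost were those of Adamts1, Adamts6, Adamts8, Adamts10, Adamts12, Adamts14, Adamtsl5, Mmp9, Mmp11, Mmp17, Mmp23, Mmp27 and Timp1. Without C3H uninjured library 3 the 10 lost were those of Adamts1, Adamts6, Adamts10, Adamts14, Adamtsl3, Mmp9, Mmp11, Mmp17, Mmp27 and Timp1. With the animal as a block 31 members passed, 24 of these 25 among them. With only the 5 C3H libraries in the fit 20 passed, and Adamts14, Adamtsl3, Mmp9, Mmp11, Mmp17 and Timp1 were lost.

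**Figure D2:**
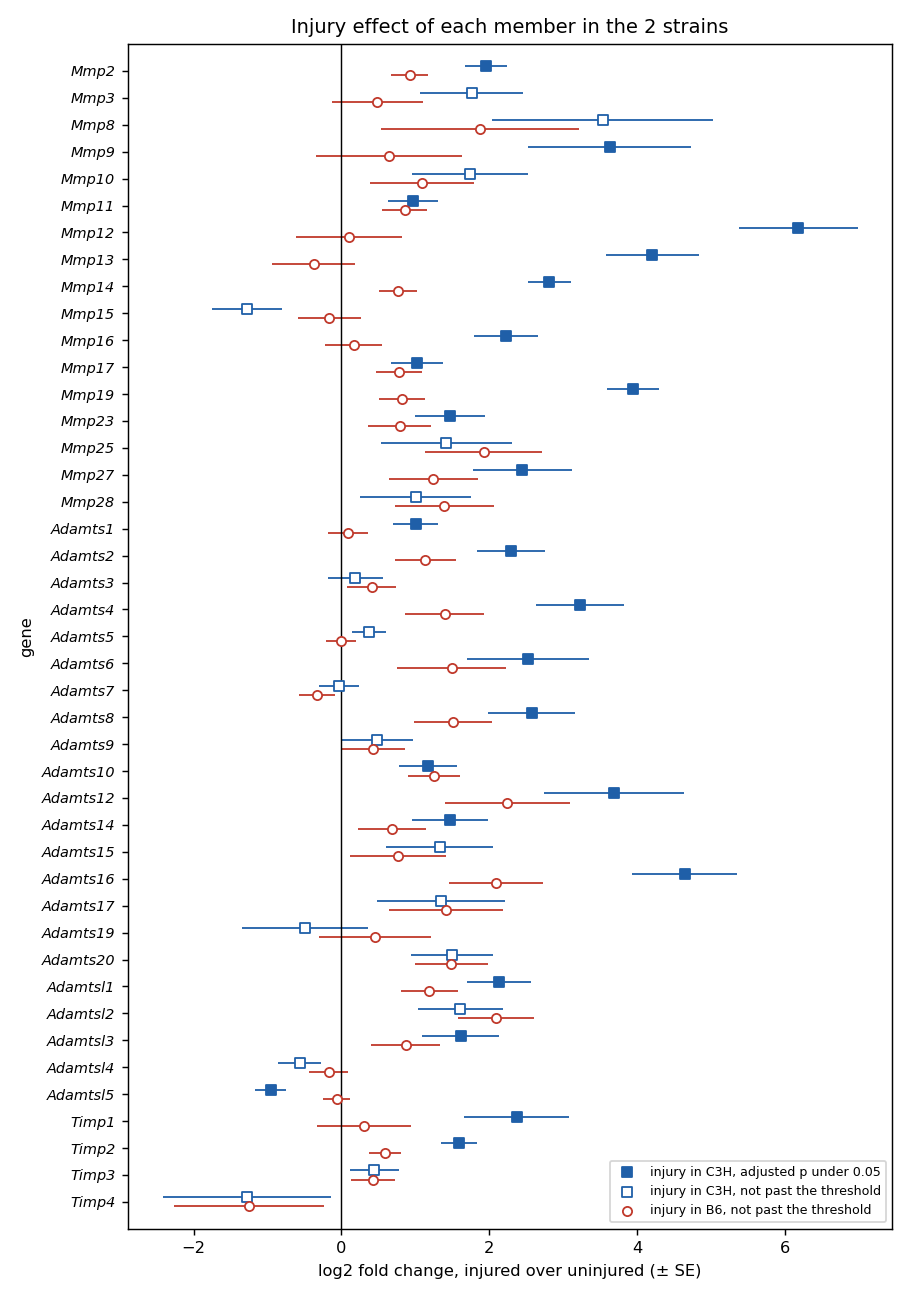
Log2 fold change of injured over uninjured regions for the 43 tested members, with 1 SE to either side, in C3H (blue squares, above) and B6 (red circles, below). Filled symbols passed an adjusted p of 0.05, which no member did in B6, and the widest gaps between the strains are those of Mmp12, Mmp13 and Mmp19.

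In B6 hearts no member passed the same test. Of the 43 members 16 had an unadjusted p under 0.05, against 13.4% of all genes. EdgeR and the fit with the animal as a block also called 0. DESeq2 gave an adjusted p to 5 of the 43 members and called 0 of these, and the other members' adjusted p was not available from it. Over all genes 0.0136% passed in B6, so 0 of 43 is near that background. The adjustment depends on all genes of a comparison, so similar limma p-values can pass in C3H and not in B6. Adamts10 was called in C3H (log2 fold change 1.17, unadjusted p = 0.0120) and not in B6 (1.25, unadjusted p = 0.00411). Its strain difference was -0.08 (adjusted p = 0.970). A call in C3H alone is therefore not a strain difference. The changes were mostly positive nonetheless: 36 of 43 members were higher, with a median of 0.78 on the log2 scale (range -1.25 to 2.24), against 0.01 over all genes. All injured libraries were above all uninjured ones for 17 members (39.53%), against 9.83% of all genes, and all were below for 1 member, Timp4, against 7.69% of all genes. Within animals, 27 of 43 members (62.8%) were higher in the injured region of each of the 3 B6 animals, against 23.0% of all genes, and 35 of 43 (81.4%) in each of the 2 C3H animals with both regions, against 39.6% of all genes. There were 26 of 43 members that were higher in the injured region of all 5 animals, against 18.6% of all genes.

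The smallest p among members in B6 belonged to Adamtsl2, a microfibril-binding protein that limits TGF-beta availability. Adamtsl2 had 673, 1188 and 1249 in B6 injured regions, against 460.3, 102 and 271 in B6 uninjured regions. These did not overlap (log2 fold change 2.09, SE 0.51, adjusted p = 0.364). Mmp2 had 5577, 6710.4 and 6496 in B6 injured regions, against 4668, 2578 and 2939 in B6 uninjured regions, likewise without overlap (log2 fold change 0.93, SE 0.25, adjusted p = 0.364). Adamts10 had 872, 1438 and 1762 in B6 injured regions, against 806, 348 and 583 in B6 uninjured regions (log2 fold change 1.25, SE 0.35, adjusted p = 0.364). Adamts2 gave 4109, 5066 and 5289 in B6 injured regions, against 3430.1, 1439 and 2099.9 in B6 uninjured regions (log2 fold change 1.14, SE 0.41, adjusted p = 0.364). Adamtsl5 gave 1658, 1691 and 1947 in B6 injured regions, against 2144, 1543 and 1877 in B6 uninjured regions, and its change was near 0 (log2 fold change -0.06, SE 0.18, adjusted p = 0.897).

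Uninjured regions varied in a way that touched the members in both strains. B6 uninjured library 1 was the highest of its group for 23 of 43 members (53.5%), against 28.5% of all genes, and C3H uninjured library 1 for 25 of 43 (58.1%), against 35.8% of all genes. The summed count of 10 fibroblast markers was also highest in these libraries, at 303710 in C3H uninjured library 1 against 75311 and 117871 in C3H uninjured libraries 2 and 3, and at 443539 in B6 uninjured library 1 against 228117 and 255455 in B6 uninjured libraries 2 and 3. Of that sum, the 3 collagen genes Col1a1, Col1a2 and Col3a1, which are also substrates of the members, made up 76.7% in C3H uninjured library 1, 19.6% and 45.8% in C3H uninjured libraries 2 and 3, and 67.6% to 76.0% in B6 uninjured libraries. The other 7 markers summed to 70781, 60544 and 63850 in C3H uninjured libraries 1 to 3 and to 106663, 73959 and 73904 in B6 uninjured libraries 1 to 3. They did not move together: Dcn was lowest in C3H uninjured library 1, with 13870.4, 28980.2 and 16559 in C3H uninjured regions, and Pdgfra was highest in library 3 in B6, with 1268, 1124 and 1605 in B6 uninjured regions. The part of fibroblasts in the members' levels was not tested.

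The injury effect itself differed between the strains for 4 of 43 members (9.302%), against 1.57% of all genes, by the interaction term of the limma fit (C3H effect minus B6 effect), and 11 members had an unadjusted p under 0.05, against 14.1% of all genes. All 4 were MMPs with the larger effect in C3H: Mmp12, Mmp13, Mmp19 and Mmp14. Mmp12 changed by 6.18 in C3H and by 0.11 in B6 on the log2 scale (difference 6.08, SE 1.08, adjusted p = 0.0172), and its B6 libraries read 57.9, 51.1 and 36.1 in injured regions, against 146, 18.7 and 30.6 in uninjured regions. Mmp13 changed by 4.21 in C3H and by -0.38 in B6 (difference 4.58, SE 0.85, adjusted p = 0.0218), with 17.1, 22.0 and 18.1 in B6 injured regions, against 34.3, 14.5 and 30.6 in B6 uninjured regions. Neither gene was separated by region in B6. Mmp19 changed by 3.95 in C3H and by 0.82 in B6 (difference 3.13, SE 0.47, adjusted p = 0.00742), with 254, 258 and 259 in B6 injured regions, against 189, 131 and 124 in B6 uninjured regions. Mmp14 changed by 2.81 in C3H and by 0.77 in B6 (difference 2.04, SE 0.39, adjusted p = 0.0245), with 3539.5, 3691 and 3461 in B6 injured regions, against 2765, 2153 and 1531 in B6 uninjured regions. For Mmp19 and Mmp14 the B6 regions were apart as well, only less so.

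**Figure D3:**
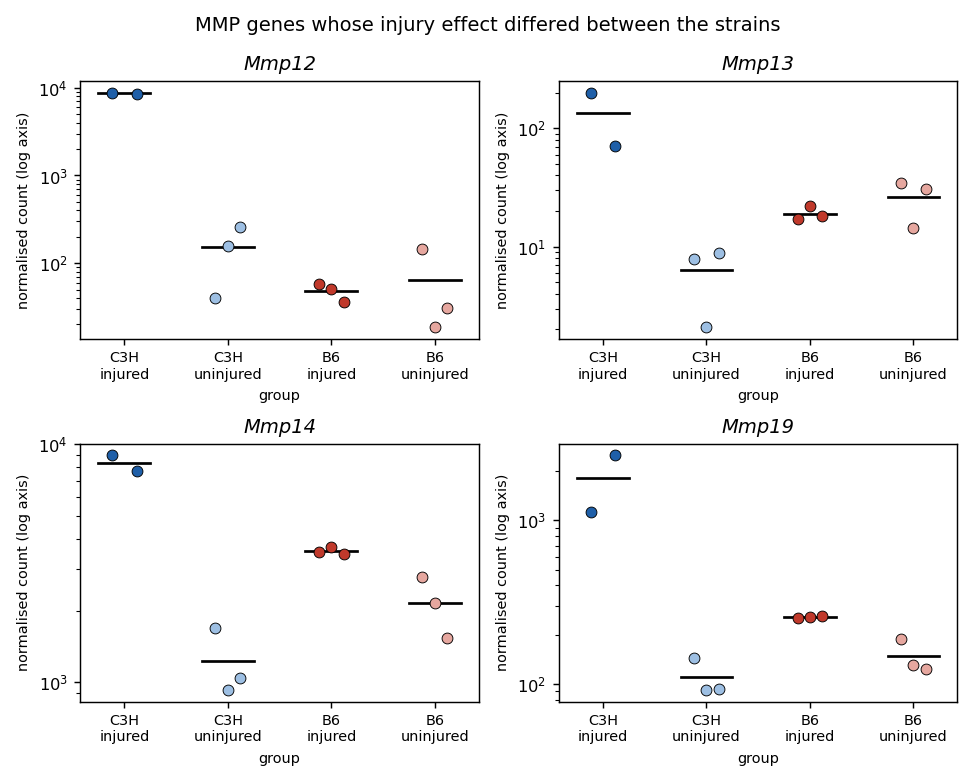
Normalised counts (log axis) of Mmp12, Mmp13, Mmp14 and Mmp19 in the 4 groups, each dot a library and each bar the group mean. C3H injured libraries are the highest in all 4 panels, and in the B6 groups Mmp12 and Mmp13 overlap between regions.

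These 4 differences were sensitive to single libraries. Mmp19 lost its call only without C3H injured library 2 (difference 2.55, adjusted p = 0.0721). Mmp12 lost it without C3H injured library 1 (adjusted p = 0.0556) or 2 (adjusted p = 0.139) and without B6 injured library 3 (adjusted p = 0.0506). Mmp13 lost it without C3H injured library 1 (adjusted p = 0.0917) or 2 (adjusted p = 0.0673), without B6 injured library 1 (adjusted p = 0.0600) or 3 (adjusted p = 0.0575) and without B6 uninjured library 1 (adjusted p = 0.0681). Mmp14 lost it without either C3H injured library, C3H uninjured library 3, any B6 injured library or B6 uninjured library 1 or 2 (adjusted p = 0.0539 to 0.139). With the animal as a block the same 4 passed, joined by Timp1. The other named members did not pass: the difference was 1.03, SE 0.37, adjusted p = 0.225 for Mmp2, 1.16, SE 0.62, adjusted p = 0.432 for Adamts2 and -0.90, SE 0.28, adjusted p = 0.153 for Adamtsl5.

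Injured regions were also set side by side between strains. Of 43 members, 7 were higher in C3H injured than in B6 injured regions (16.28%) and 0 lower, against 3.72% and 3.34% of all genes. The 7 were 6 MMPs and Timp2. Mmp12 differed most, with 8783 and 8504 in C3H injured regions, against 57.9, 51.1 and 36.1 in B6 injured regions (log2 fold change 7.48, SE 0.80, adjusted p = 0.000307). Mmp19 followed (log2 fold change 2.70, SE 0.35, adjusted p = 0.00111), then Mmp13 (log2 fold change 2.59, SE 0.63, adjusted p = 0.0324), Mmp16 (log2 fold change 1.81, SE 0.43, adjusted p = 0.0288), Mmp14 (log2 fold change 1.22, SE 0.29, adjusted p = 0.0289) and Mmp2 (log2 fold change 1.12, SE 0.28, adjusted p = 0.0345). Mmp16 had 129.7 and 91.2 in C3H injured regions, against 23.6, 36.9 and 31.8 in B6 injured regions. Mmp12 and Mmp19 passed with any 1 library left out, and the other 5 were lost without any 1 injured library of either strain, Timp2 also without C3H uninjured library 3 (adjusted p = 0.0551). Adamts2 (log2 fold change 0.38, SE 0.46, adjusted p = 0.655) and Adamtsl5 (log2 fold change -0.29, SE 0.21, adjusted p = 0.418) did not pass.

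In uninjured regions no member differed between the strains by limma, against 3.1% of all genes, while 7 of 43 had an unadjusted p under 0.05, near the 16.3% of all genes. EdgeR called 0 and DESeq2 called 4: Adamtsl4, Adamtsl5, Mmp13 and Timp1. Adamtsl4, another microfibril-associated protein, had 1296, 1664 and 1034 in C3H uninjured regions, against 641, 622 and 786 in B6 uninjured regions, without overlap (log2 fold change 0.94, SE 0.26, adjusted p = 0.0817). Adamtsl5 was likewise apart, with 2690.3, 2653 and 3050.1 in C3H uninjured regions, against 2144, 1543 and 1877 in B6 uninjured regions (log2 fold change 0.60, SE 0.18, adjusted p = 0.115). Mmp13 had 7.92, 2.09 and 8.88 in C3H uninjured regions, against 34.3, 14.5 and 30.6 in B6 uninjured regions, again without overlap (log2 fold change -2.00, SE 0.57, adjusted p = 0.0873). Mmp2 (log2 fold change 0.09, SE 0.25, adjusted p = 0.904) and Adamts2 (log2 fold change -0.78, SE 0.41, adjusted p = 0.387) overlapped. The reads were aligned to build mm9, which is of B6, so C3H reads over variants may be undercounted in both strain comparisons.

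Of the 4 inhibitors 2 rose in C3H, and none passed in B6. Timp1, the inducible soluble inhibitor, had 2533 and 1071 in C3H injured regions, against 799, 136 and 293 in C3H uninjured regions. It rose without overlap (log2 fold change 2.37, SE 0.71, adjusted p = 0.0257), a call lost without C3H injured library 1 (log2 fold change 1.75, adjusted p = 0.198) or 2 (log2 fold change 2.99, adjusted p = 0.0523) and without C3H uninjured library 2 (log2 fold change 1.76, adjusted p = 0.0776) or 3 (log2 fold change 2.32, adjusted p = 0.0664). In B6 it had 2712, 2373 and 1105 in injured regions, against 2844, 1808 and 731 in uninjured regions, with overlap (log2 fold change 0.31, SE 0.64, adjusted p = 0.849). The uninjured regions of C3H read lower than those of B6 on average, a difference that did not pass (log2 fold change -2.29, SE 0.64, adjusted p = 0.0822), and in injured regions the strains overlapped (log2 fold change -0.22, SE 0.71, adjusted p = 0.874). The difference of the Timp1 injury effect between strains did not pass (2.07, SE 0.96, adjusted p = 0.359), but it did with the animal as a block (log2 difference 2.01, adjusted p = 0.0180). Timp1 lies on the X chromosome, and for this gene too strain cannot be told apart from sex.

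Timp2, the inhibitor that also takes part in MMP2 activation by MMP14, had 14004 and 14261 in C3H injured regions, against 5248, 3863 and 5028 in C3H uninjured regions. The C3H injured libraries were nearly equal and Timp2 rose (log2 fold change 1.60, SE 0.25, adjusted p = 0.000828). In B6 it had 7223, 7277 and 7700.1 in injured regions, against 6477, 3959 and 4648 in uninjured regions, apart but not past the threshold (log2 fold change 0.59, SE 0.22, adjusted p = 0.364). C3H injured regions were above B6 injured regions (log2 fold change 0.93, SE 0.25, adjusted p = 0.0417), uninjured regions differed by -0.08 (adjusted p = 0.906), and the strain difference of its injury effect did not pass (1.01, SE 0.33, adjusted p = 0.180).

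Timp3, which is bound to the matrix and inhibits ADAMTS proteases as well as MMPs, had 9209 and 6986 in C3H injured regions, against 5427, 9491 and 3982 in C3H uninjured regions. C3H uninjured library 2 was the highest of all 11, the groups overlapped and Timp3 did not pass (log2 fold change 0.44, SE 0.33, adjusted p = 0.330). In B6 it had 5919.6, 6659 and 7827 in injured regions, against 4443, 4533 and 6254 in uninjured regions (log2 fold change 0.43, SE 0.30, adjusted p = 0.515). Neither strain comparison of Timp3 passed, with log2 fold changes of 0.25, SE 0.33, adjusted p = 0.690 in injured and 0.23, SE 0.30, adjusted p = 0.754 in uninjured regions, and the difference of its effects was 0.01, SE 0.45, adjusted p = 0.995.

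Timp4, the inhibitor known for its high level in heart, was the only member lower in the injured region of all 5 animals. It had 38.9 and 478 in C3H injured regions, against 62.4, 1671 and 358 in C3H uninjured regions. Animal 2 was far above animal 1 in both regions. In B6 it had 232, 243 and 241 in injured regions, against 453, 886 and 457 in uninjured regions, with no overlap. The limma fit shares its estimate of the spread over all groups, so the B6 SE also holds the spread between C3H animals. Neither change passed (log2 fold change -1.28, SE 1.14, adjusted p = 0.414 in C3H and -1.25, SE 1.02, adjusted p = 0.578 in B6). With the animal as a block the C3H change did (log2 fold change -1.23, SE 0.33, adjusted p = 0.0147), on 2 animals, and the B6 change did not (adjusted p = 0.101). The summed cardiomyocyte markers were lower in injured than in uninjured libraries of both strains, and their part in the level of Timp4 was not tested. Between strains Timp4 overlapped, with log2 fold changes of -0.79, SE 1.14, adjusted p = 0.710 in injured and -0.76, SE 1.02, adjusted p = 0.768 in uninjured regions, and the difference of effects was -0.03, SE 1.52, adjusted p = 0.997.

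**Figure D4:**
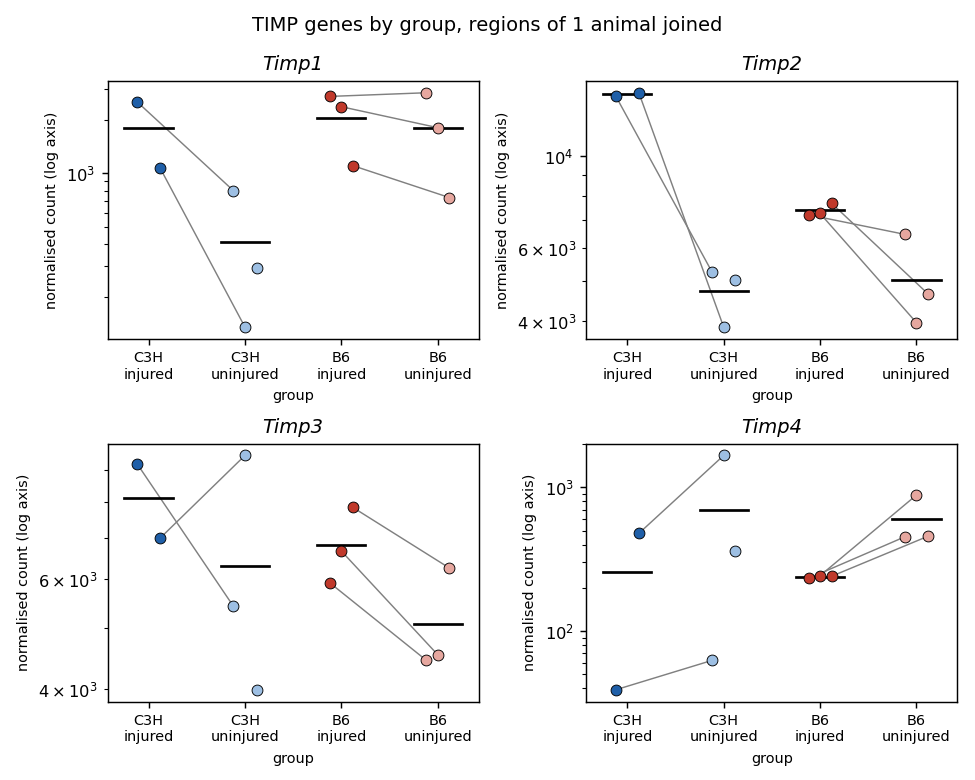
Normalised counts (log axis) of the 4 TIMP genes, each dot a library, each bar a group mean, and each line joining both regions of 1 animal. Timp4 is lower in the injured region of all 5 animals, and the C3H injured libraries of Timp2 lie above every other library.

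Levels were also summed over each class in each library. The MMP sum was 34884 and 39270.1 normalised counts in C3H injured regions, against 10875, 6282 and 8780.0 in C3H uninjured regions. In B6 it was 13701, 15112 and 14203 in injured regions, against 11981, 7628 and 8232 in uninjured regions. The TIMP sum was 25784 and 22796 in C3H injured regions, against 11536, 15161 and 9661 in C3H uninjured regions, and 16087, 16552 and 16873 in B6 injured regions, against 14217, 11186 and 12089 in B6 uninjured regions. Dividing the MMP sum by the TIMP sum gave 1.35 and 1.72 in C3H injured regions, against 0.943, 0.414 and 0.909 in C3H uninjured regions. The same ratio was 0.852, 0.913 and 0.842 in B6 injured regions, against 0.843, 0.682 and 0.681 in B6 uninjured regions. The C3H injured libraries had the highest ratios of all 11. These sums weight genes by length and level, say nothing of protein activity and were given no test.

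**Figure D5:**
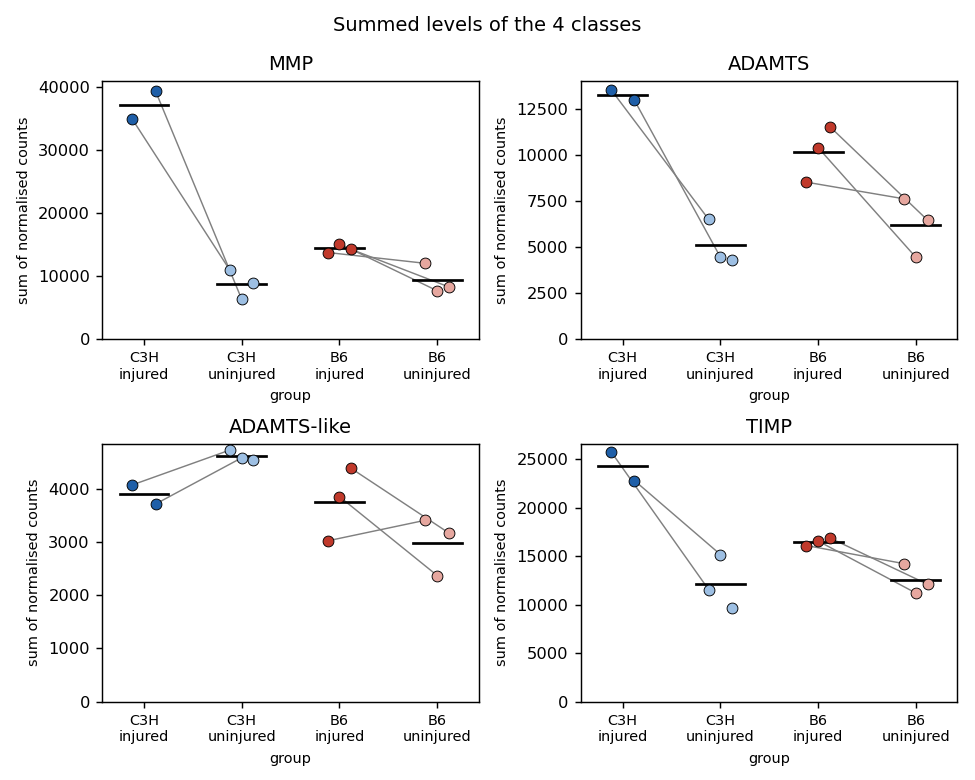
Summed normalised counts of the MMP, ADAMTS, ADAMTS-like and TIMP members per library (dots), with group means (bars) and lines joining both regions of 1 animal. The MMP sum is 34884 and 39270 in C3H injured libraries, above every other library, whereas the ADAMTS-like sum is lower in the injured than in the uninjured region of both C3H animals.

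On a per-length scale, as mean normalised counts per kilobase of exon, Mmp2 was the most abundant member in C3H injured regions at 4046 ± 671, against 1047 ± 191 in C3H uninjured regions. Timp2 came next with 3627 ± 46.5 in C3H injured and 1209.7 ± 191 in C3H uninjured regions, and Timp1 with 2029 ± 1164 in C3H injured and 461 ± 390.2 in C3H uninjured regions. Mmp14 stood at 1398 ± 151 in C3H injured and 205 ± 69.0 in C3H uninjured regions. Mmp12 stood at 1194 ± 27.3 in C3H injured regions and at 21.1 ± 15.3 in C3H uninjured regions. Length was taken over all annotated exons of a gene merged together, 7.237 kb for Mmp12 and 5.96 kb for Mmp14. Levels on this scale and their order depend on that length, and a gene read mainly from a shorter transcript is understated. In B6 injured regions Mmp12 stood at 6.68 ± 1.54, against 8.97 ± 9.68 in B6 uninjured regions, while Mmp2 stood at 1857 ± 179 in B6 injured and 1007 ± 331 in B6 uninjured regions (all ± SD, n = 2 for C3H injured and 3 for the other groups).

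Other genes of the pathway were counted from lists, which were chosen with earlier results of these data known. Of 19 tested activators and pericellular regulators, 8 rose and 1 fell in C3H injured against C3H uninjured regions, to be read against the 15.3% of all genes that rose and the 15.4% that fell. Cd44, a hyaluronan receptor that docks MMP9 at the cell surface, rose (log2 fold change 3.49, SE 0.49, adjusted p = 0.000486), as did Plau, the urokinase that makes plasmin (log2 fold change 3.34, SE 0.40, adjusted p = 0.000183), and Serpine2, a serpin that inhibits it (log2 fold change 2.67, SE 0.32, adjusted p = 0.000190). The MMP inducer Bsg fell (log2 fold change -1.28, SE 0.29, adjusted p = 0.00649). Of 15 other metalloproteases 9 rose and 0 fell, led by the sheddase Adam8 (log2 fold change 5.47, SE 0.54, adjusted p = 5.77e-05), Adam12 (log2 fold change 4.62, SE 0.84, adjusted p = 0.00207) and Pappa, which cuts insulin-like growth factor binding proteins (log2 fold change 3.33, SE 0.35, adjusted p = 8.11e-05). Of 17 substrates 11 rose and 0 fell, with a median of 3.05, led by Acan (aggrecan, log2 fold change 6.17, SE 0.99, adjusted p = 0.00108), Comp (log2 fold change 4.33, SE 0.77, adjusted p = 0.00186) and Fn1 (fibronectin, log2 fold change 4.12, SE 0.89, adjusted p = 0.00511). Acan had few reads in C3H uninjured regions, with normalised counts of 199.8 and 104 in C3H injured regions, against at most 3.14 in C3H uninjured regions. In B6 none of these 3 lists had a gene past the threshold. The injury effect differed between strains for 3 of 19 activators and regulators (Cd44, Plau and Serpine2) and for 2 of 15 other metalloproteases (Adam8 and Pappa). It did so for 0 of the 17 substrates, near the 1.57% of all genes. The median strain difference was 0.344, 0.765 and 1.81 on the log2 scale in these 3 lists in that order. An unadjusted p under 0.05 was reached by 6 of 19, 7 of 15 and 6 of 17, against 14.1% of all genes.

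Markers of several other cell types also changed with injury in C3H, where 15.3% of all genes rose and 15.4% fell. The marker lists too were chosen with earlier results of these data known. Of the macrophage markers 9 of 10 rose, and their sum was 73084 to 128447 in C3H injured, 11518 to 20353 in C3H uninjured, 32053 to 41676 in B6 injured and 20514 to 27109 in B6 uninjured libraries. Of 8 osteoclast markers listed, 6 were tested and 5 of these rose. The sums were 8977 to 25860 in C3H injured, 1018 to 1271 in C3H uninjured, 1550 to 1975 in B6 injured and 1072 to 1557 in B6 uninjured libraries. Ctsk, Acp5, Atp6v0d2 and Nfatc1 gave 4439, 1862, 1644 and 1011 in C3H injured library 1. In library 2 they gave 13122, 7437, 3706 and 1461. Ocstamp, Dcstamp, Calcr and Oscar stayed at or under 45.225 in both libraries. Of 9 chondrocyte markers listed, 6 were in the table and 4 were tested, and these 4 rose. The sums were 3325 to 4987 in C3H injured, 31.4 to 286 in C3H uninjured, 462 to 671 in B6 injured and 147 to 246 in B6 uninjured libraries. Col11a1 alone gave 4081 of 4987 in C3H injured library 1 and 3024 of 3325 in library 2. Col2a1 was too low to be tested, at 6.05 and 1.41 in C3H injured libraries. Among 10 fibroblast markers 6 rose and 1 fell, and among 10 cardiomyocyte markers 0 rose and 8 fell. Among 10 smooth muscle and pericyte markers 2 rose and 1 fell, near those shares, and among 10 endothelial markers 3 fell. T cell, B cell, mast cell, epicardial and neutrophil markers had 0 past the threshold. The injury effect differed between strains for 4 of 10 macrophage, 2 of 6 osteoclast and 1 of 4 chondrocyte markers, against 1.57% of all genes. Dcstamp had 0 reads in B6 uninjured libraries, Calcr had reads in C3H injured library 2 and in no other library, and Hapln1 had 0 reads in B6 uninjured libraries. The part of any of these cell types in the levels of Mmp12, Mmp13, Mmp14 and Mmp19, or of any other member, was not tested.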

How the data were processed

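RNA sequencing libraries of injured and uninjured heart regions were grouped by the strain and treatment in the labels. The deposited signal is a table of gene-level read counts that the authors divided by 1 size factor per library. Reads were aligned with TopHat2 2.0.11 to build mm9, counted with HTSeq 0.6.1 and normalised with DESeq, per the submitters' processing notes, and for annotation, strandedness and filters nothing is given in the sources used here. All values were whole multiples of 1 step per library (100% at a tolerance of 1e-06), which gave the reads.

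The tests took the 14751 genes that reached a normalised count of 10 in 2 or more libraries and left out 523. A model with 4 group means over 11 libraries was fitted to log2(normalised count + 1), which understates changes of low genes, with limma 3.58.1 in R 4.3.3 (mean-variance trend, 7 residual degrees of freedom), two-sided, and p-values were adjusted over the 14751 genes by Benjamini-Hochberg (threshold 0.05). Libraries of a group came from different mice, so p-values measure the spread between animals and libraries together. The model holds no term for the animal, so both regions of a heart count as independent libraries in it. The 5 comparisons were injury in each strain, the difference of these effects, and C3H against B6 in each region. The fit was also run on simulated counts with known changes, drawn independently for each library. That run cannot show how the fit behaves where both regions come from the same heart. Alternatives were pseudocounts of 0.5 and 5, no filter, a filter of 50, an animal block, only the groups compared, quantile and TMM scaling, edgeR 4.0.16 and DESeq2 1.42.0 on the reads, and each library left out. Where 1 library was left in a group, it was assumed to vary like the others.

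The labels name the mouse, so regions of the same number within a strain are of the same heart. Their residuals correlated at 0.305 and 0.575 in C3H and at 0.276, -0.0140 and 0.524 in B6. The block fit used the 10 libraries of the 5 animals with both regions.

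Members and lists were chosen with earlier results of these data known. The 4 TIMPs were named, for each comparison up to 8 members with the largest rise and 8 with the largest fall past the threshold (or 3 by smallest p where fewer than 3 passed), in each other class the member with the highest mean, and of each pathway list up to 3 genes per direction in C3H. Other members named in the text to show which genes passed were chosen after their values were seen. Exon lengths are from GENCODE M21, merged over all annotated exons of a gene, and promoters from RefSeq, both of GRCm38.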

Additional observations from a re-analysis of the deposited data

Results flagged for a closer look

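The injury effect of 4 MMP genes differed between the strains by the interaction term of the limma fit. The C3H effect minus the B6 effect was 6.08 on the log2 scale for Mmp12 (SE 1.08, adjusted p = 0.0172), 4.58 for Mmp13 (SE 0.85, adjusted p = 0.0218), 3.13 for Mmp19 (SE 0.47, adjusted p = 0.00742) and 2.04 for Mmp14 (SE 0.39, adjusted p = 0.0245). In these 4 genes both C3H injured libraries were above all 9 other libraries. The same 4 passed with edgeR, with DESeq2 and with the animal as a block. All 4 calls were sensitive to single libraries, as given with the results, and the C3H injured group held only 2 libraries. Strain and sex cannot be told apart in this design.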

How the results depend on the processing

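Of 523 values of named members under other settings, 503 kept their direction and their side of the threshold, and of 616 values with 1 library left out, 539 did. These shares are over named members, chosen partly for large changes, and many of the values had not passed in the limma fit. They therefore do not measure how firm the calls were. The number of members past the threshold was 0 in B6 under every setting run, though DESeq2 gave only 5 of 43 members an adjusted p there. In C3H it was 25, and 12 to 26 with 1 library left out. Of these 25, 19 passed with only the groups compared, 21 with quantile normalization (losing Adamts6, Adamts14, Mmp11 and Mmp17), 24 with edgeR (losing Adamts14), 24 with the filter of 50 (losing Mmp27), and all 25 with DESeq2, TMM scaling, either pseudocount or no filter. For the strain difference of the injury effect 4 members passed, 7 with DESeq2 (adding Adamtsl5, Mmp16 and Timp2) and 0 to 4 with 1 library left out. In uninjured regions 0 passed between strains, 4 with DESeq2 and 0 to 2 with 1 library left out. In injured regions 7 passed, 11 with only the groups compared (adding Adamts4, Adamts16, Mmp8 and Mmp9) and 2 to 8 with 1 library left out. Between injured regions edgeR and DESeq2 each also added Adamts16 and Mmp9. The pseudocount of 5 and quantile normalization each added Adamts16 there, and the fit with no filter added Adamts13. Quantile normalization moved the median C3H injury effect of all genes to -0.11. The cause of these differences was not tested.

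With the replicate block for the animal, which leaves out C3H uninjured library 3, 31 members passed in C3H, 0 in B6 and 5 for the strain difference, and the block changed no other call than those named with the results.

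Reversed directions were all of changes that had not passed. With other settings, Adamtsl5 in B6 was 0.08 (quantile normalization), and the strain difference was -0.27 (block), -0.03 (TMM scaling), -0.11 (edgeR) and -0.06 (DESeq2) for Timp3 and 0.01 (block) for Timp4. Timp4 between strains was 0.11 in injured and 0.28 in uninjured regions with edgeR, and 0.12 in injured and 0.22 in uninjured regions with DESeq2. With 1 library left out, log2 changes ranged from -3.07 to 0.51 for Timp4 in C3H, from -0.19 to 0.05 for Adamtsl5 and from -0.24 to 0.74 for Timp1 in B6. The strain difference ranged from -0.27 to 0.36 for Timp3 and from -1.83 to 1.76 for Timp4. Between injured regions the ranges were -0.84 to 0.4 for Timp1 and -2.59 to 1.0 for Timp4. Between uninjured regions they were -0.09 to 0.34 for Mmp2, -0.23 to 0.12 for Timp2, -0.11 to 0.52 for Timp3 and -1.92 to 0.44 for Timp4.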
